A study of Mus musculus with 9 samples.

Results

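The genes examined here encode 10 proteins of the growth cone and the growing axon, namely Sprr1a, Gap43, Basp1, Marcks, the stathmins Stmn1, Stmn2, Stmn3 and Stmn4, and the collapsin response mediators Dpysl2 and Dpysl3. They were taken by gene name or RefSeq identifier and had 13 probes, among 41174 probes for 27670 gene names on the array. RNA of mouse L3/L4 dorsal root ganglia (DRG, which hold the cell bodies of sensory neurons) was compared between 4 uninjured samples and 5 samples taken 3 days after sciatic nerve transection. All mice were adult and were labelled cre.neg and jun.wt. The labels give no animal, strain or age in days, so samples were treated as unpaired. For nerve injury the study's methods name contralateral uninjured DRG as controls for other assays, so the groups of arrays may share animals, which cannot be told from the labels. The p-values measure the spread between these samples, which may be partly technical. For the same experiment the study's text gives 24 hr and L4 DRG. A legend names nerve crush and n = 5 per condition, and a supplement legend gives n = 4 per condition.

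Each sample was labelled with Cy5 and hybridised to an Agilent array together with a universal mouse reference RNA labelled with Cy3, without dye swap. Values are given as the log2 ratio of Cy5 to Cy3 after background correction and loess. A value of 0 thus means equal normalized signal and need not mean equal raw signal of DRG and reference. Levels of different probes cannot be compared. The median Cy5 signal was between 199.7 and 231 on uninjured arrays (C1 to C4) and between 156 and 238 on injured arrays (T1 to T5). The lowest was T5, which also had the lowest value of the injured arrays on 8 of the 13 member probes and the highest on 3. The arrays lay on 3 slides, of which 1 held C1, T1, T2 and T5, 1 the other uninjured arrays and 1 the other injured arrays. Slide and injury therefore overlap in large part, and values within the shared slide are given beside the changes. Those values, and the changes with slide as a fixed block, rest on C1 as the only uninjured array.

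A growth cone is the motile tip of an axon, in which bundles of microtubules meet a rim of actin filaments. GAP43, BASP1 and MARCKS are acidic proteins held at the inner face of its membrane, where they bind calmodulin, are phosphorylated by protein kinase C and influence actin through membrane phosphoinositides. Stathmins bind tubulin dimers and promote the disassembly of microtubules, DPYSL2 promotes their assembly and DPYSL3 bundles actin. SPRR1A is a small proline-rich protein of the envelope that forms around skin cells, and was later found in axons of injured sensory neurons, where it promotes outgrowth.

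Sprr1a stood far above the other members, with a ratio 31.8-fold higher in injured ganglia. Rises of smaller size were measured for Stmn4 (2.41-fold), Marcks (1.79-fold), Gap43 (1.54-fold) and Basp1 (1.32-fold). The dimmer of the 2 Stmn2 probes was also called higher, but its reference signal was well above background on 1 of 9 arrays, so no fold is set on it. Stmn1, Stmn3, Dpysl2 and Dpysl3 did not pass the test. All 13 probes were above background in Cy5 on all 9 arrays, and limma called 6 of them higher and 0 lower in injured ganglia at an adjusted p under 0.05. Of all 31186 probes tested, 10.5% were called higher, 13% lower and 23.5% in either direction. The median change on the log2 scale was 0.24 over the 13 member probes and −0.00447 over all probes. On 4 member probes (Sprr1a, Stmn4, Marcks and the dimmer Stmn2 probe) all injured arrays lay on one side of all uninjured arrays, which was the case for 22.6% of all probes.

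**Figure D1:**
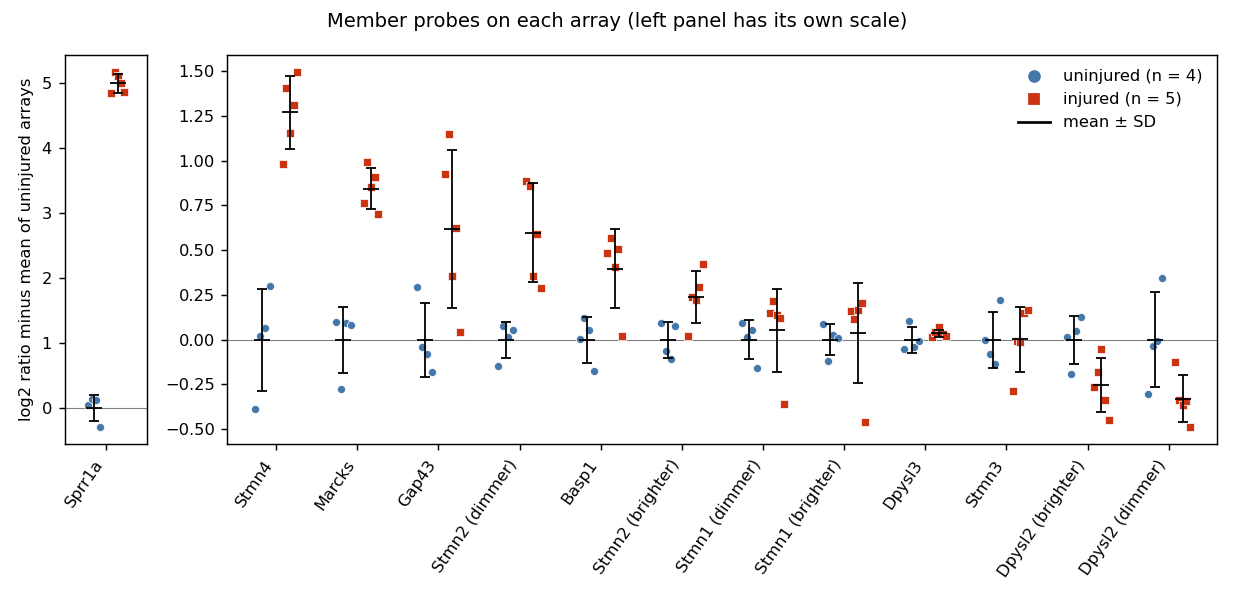
Log2 ratio of each member probe on each array minus the mean of the 4 uninjured arrays (vertical axis, log2 units), with circles for uninjured and squares for injured arrays and bars for mean ± SD. Sprr1a, on its own scale, lies near 5 on all injured arrays, Stmn4 and Marcks show no overlap of the groups, and 1 injured array of Gap43 and Basp1 (T5) lies among the uninjured ones.

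The 250 bases before the annotated start site are shown for Sprr1a, which had the largest change, for Basp1, a member with a small rise, and for Stmn3, which did not pass. The 3 windows were taken from the RefSeq promoter table (build GRCm38.p6). Windows of other members are not shown, so these 3 need not be all the members in that table. They were not picked by size of change, and Stmn4, Marcks and Gap43, which also rose, have no window beside them. All 3 lie on the minus strand: Sprr1a at chr3:92485882-92486131, Basp1 at chr15:25413765-25414014 and Stmn3 at chr2:181314501-181314750. Capitals mark AP-1 and TATA box letters.
Sprr1a: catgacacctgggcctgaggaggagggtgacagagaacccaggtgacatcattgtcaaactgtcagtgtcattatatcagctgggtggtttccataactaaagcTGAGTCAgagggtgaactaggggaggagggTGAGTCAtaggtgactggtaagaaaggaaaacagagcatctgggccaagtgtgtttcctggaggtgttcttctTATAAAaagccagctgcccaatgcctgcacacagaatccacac
Basp1: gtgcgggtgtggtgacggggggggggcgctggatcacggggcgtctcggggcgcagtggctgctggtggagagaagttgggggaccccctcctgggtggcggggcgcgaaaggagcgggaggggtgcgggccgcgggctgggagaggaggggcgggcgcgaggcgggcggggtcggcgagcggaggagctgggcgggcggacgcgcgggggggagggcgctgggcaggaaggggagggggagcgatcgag
Stmn3: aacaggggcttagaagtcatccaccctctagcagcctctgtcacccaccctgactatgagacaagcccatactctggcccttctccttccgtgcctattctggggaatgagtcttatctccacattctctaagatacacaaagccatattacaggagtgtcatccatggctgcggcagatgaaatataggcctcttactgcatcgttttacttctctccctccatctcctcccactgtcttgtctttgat
The sequences were searched on both strands for AP-1 (TGANTCA), CRE (TGACGTCA), C/EBP-ATF (TGATGNAA), STAT (TTCNNNGAA), E-box (CANNTG) and TATA box (TATAAA) letters. The Sprr1a window held 2 AP-1 matches, at positions −146 to −140 and −116 to −110 from the start site, and 1 TATA box match at −43 to −38. It also held 6 E-box matches, which stand in lower case. Among 32536 distinct RefSeq windows of the same length, 6.73% held the AP-1 letters at least once and 0.338% held them 2 or more times, 12.3% the TATA box letters and 66.2% the E-box letters. The CRE letters were in 1.56%, those of C/EBP-ATF in 3.4% and those of STAT in 7.04%, and none of these was in the windows shown. Stmn3 held 1 E-box match and Basp1 none of the 6, in a window of 78.8% G and C against 49.6% for Sprr1a and 48.8% for Stmn3. The matches are a description of letters and no measurement of binding.

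Sprr1a was read by probe A_51_P139678 (NM_009264, chr3:92590070-92590129 on build mm7, as are all probe positions given here). Its log2 ratio was −2.24, −2.14, −2.16 and −2.57 on uninjured arrays C1 to C4 and 2.57, 2.88, 2.82, 2.72 and 2.58 on injured arrays T1 to T5. The DRG signal was thus below the reference on every uninjured array and above it on every injured array, with a wide gap between the groups. Uninjured arrays averaged −2.28 ± 0.20 (SD, n = 4) and those of injured ganglia 2.71 ± 0.14 (SD, n = 5), which gives a difference of 4.99 (SE 0.10, 95% interval 4.76 to 5.22), with limma's adjusted p of 1.16e-09. An exact permutation test of the 4 and 5 arrays gave p = 0.00794, the smallest it can give. It was the second highest change of the 31186 probes.

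In the Cy5 channel the Sprr1a spot went from a mean of 262 ± 46.4 on uninjured arrays to 11820 ± 3659 on injured arrays, a 43.8-fold rise for Cy5 alone after quantile normalization. Its Cy3 signal was 785 ± 85.5 on uninjured and 994 ± 113 on injured arrays, 1.28-fold higher although the reference RNA was the same (limma on Cy3 alone, adjusted p = 0.0139). Of all probes, 0.106% were called in Cy3. Within the shared slide the change in the ratio was 4.92, and with slide as a block its adjusted p was 2.61e-05.

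Other genes of the small proline-rich family and the skin envelope were at hand as a comparison. Of 22 such genes, 19 had a probe and 12 were tested, of which 1 rose, 0 fell and 11 did not pass, with a median change of −0.04. Among all probes tested, 10.5% were called higher and 13% lower. The gene that rose was Lor, which encodes the envelope protein loricrin, by 0.45 (SE 0.10, adjusted p = 0.00781). Sprr2a1, Sprr2b, Sprr2e, Sprr2f, Sprr2g and Sprr2k had changes between −0.42 and 0.20 and did not pass, and these closely similar copies may share probe signal. Sprr1b, the nearest relative of Sprr1a, and Sprr2d, Sprr2h, Sprr3, Sprr4, Ivl and Flg were not above background on enough arrays to be tested. Of 8 tested keratinocyte markers 1 was called, Krt14, higher by 0.27 (adjusted p = 0.0441), and Dsg3 was not above background. The mean log2 ratio of these markers ranged from −0.53 to −0.42 on uninjured and from −0.45 to −0.34 on injured arrays, and their part in the Sprr1a result was not tested.

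Among the stathmins, Stmn4 (A_51_P194249, NM_019675, chr14:61222069-61222128) was the member with the clearest change. STMN4, also called RB3, is a neuronal, membrane-bound stathmin. Log2 ratios were 4.72, 5.13, 5.17 and 5.41 on C1 to C4 and 6.09, 6.52, 6.26, 6.42 and 6.60 on T1 to T5. The lowest injured array was above the highest uninjured array, with C1 the lowest of all. From means of 5.11 ± 0.29 (SD, n = 4) and 6.38 ± 0.21 (SD, n = 5) the change was 1.27 (SE 0.14, limma adjusted p = 0.000118, exact permutation p = 0.00794).

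For Stmn4 the ratio hides part of the change in Cy5, because the reference channel moved with it. The Cy5 signal was 11317, 19650, 20508 and 19092 on C1 to C4 and 101775, 105839, 86847, 78463 and 57016 on T1 to T5. The Cy3 signal was 248, 282, 263 and 271 on C1 to C4 and 661, 598, 484, 543 and 480.0 on T1 to T5. Groups did not overlap in either channel. Cy5 alone rose 5.30-fold and Cy3 alone 2.03-fold (limma adjusted p = 0.00133 for Cy3), so that the 2.41-fold rise in the ratio is smaller than the rise in Cy5. The part of the DRG signal or of any other source in the Cy3 rise was not tested. C1, the only uninjured array of the shared slide, had the lowest Stmn4 ratio (4.72). Within the shared slide the ratio changed by 1.68, with an adjusted p of 0.00347 with slide as a block and 0.0656 when arrays of that slide were used alone.

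**Figure D2:**
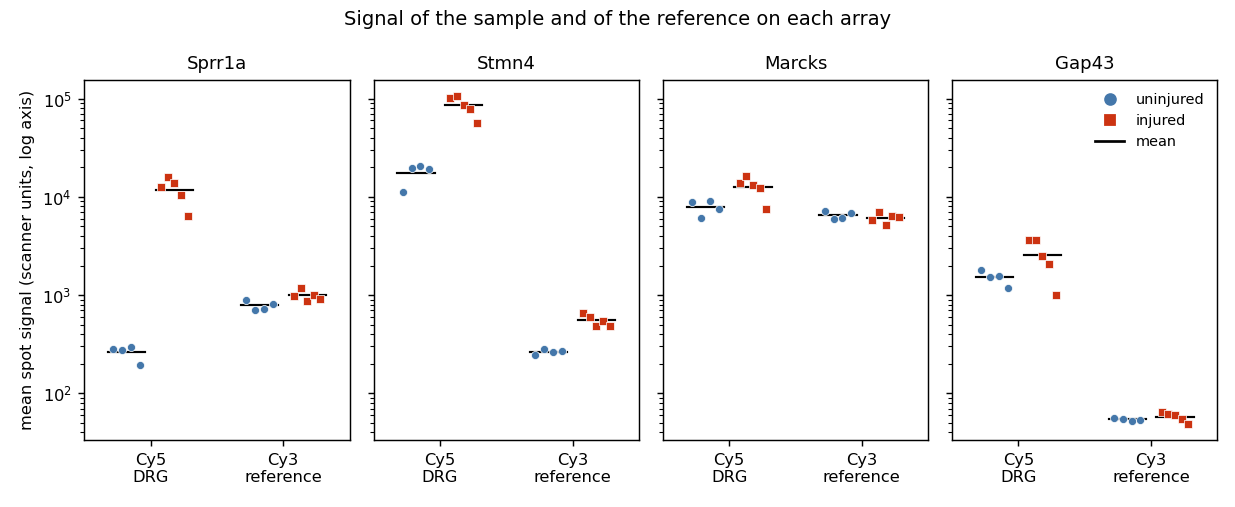
Mean spot signal in scanner units (log axis) of Cy5, the DRG sample, and Cy3, the common reference, for Sprr1a, Stmn4, Marcks and Gap43 on each uninjured (circles) and injured (squares) array, with a line at each group's mean. Cy5 separates the groups for Sprr1a and Stmn4, Cy3 also separates them for Stmn4 (248 to 282 against 480.0 to 661), and Cy3 of Gap43 lies between 48.8 and 64.8 on all arrays.

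Stmn2 encodes SCG10 (stathmin 2), a stathmin of growth cones that is enriched in growing sensory axons. The brighter of its probes (A_51_P164998, NM_025285, chr3:8567696-8567755) gave log2 ratios of 6.48, 6.32, 6.28 and 6.46 on C1 to C4 and 6.40, 6.62, 6.61, 6.68 and 6.80 on T1 to T5. All injured arrays but T1 were above the uninjured range. The change was 0.24 (SE 0.08, limma adjusted p = 0.0631), with Cy5 signals of 60213 ± 2875 and 66406 ± 13821 and Cy3 signals of 369 ± 17.5 and 363 ± 45.7. This probe was called higher under 4 of 25 other settings, among them the authors' processed values (0.46, adjusted p = 0.00626) and leaving out T1 (0.29, adjusted p = 0.0194). Its change was 0.13 within the shared slide, with an adjusted p of 0.694 with slide as a block.

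A dim Stmn2 probe (A_52_P641991) was designed on the cDNA AK043202, which the file places at chr3:8554020-8554079, upstream of the brighter probe on the same strand. Its log2 ratios were 0.40, 0.62, 0.56 and 0.59 on C1 to C4 and 1.43, 1.40, 0.90, 1.13 and 0.83 on T1 to T5. The groups did not overlap, and the change was 0.60 (SE 0.13, limma adjusted p = 0.00687, exact permutation p = 0.0159). Its Cy5 signal was low, 116 ± 13 against 207 ± 57.6, and Cy3 (46.5 ± 1.03 against 47.4 ± 3.10) was well above background on 1 of 9 arrays, so the denominator of the ratio is at background. The change was 0.44, 0.70 and 0.87 under other background corrections and 1.58 with Agilent's ratio, which differs in background model and normalization. It was not called under 5 of 22 other settings, among them slide as a block (0.83, adjusted p = 0.0744). The 2 probes of Stmn2 thus differ in size of change and in call. Which transcript the dim probe reads was not analysed here.

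Stmn1, the widely expressed stathmin that is also abundant in dividing cells, had 2 probes with similar values. The brighter (A_51_P495641, NM_019641, chr4:133852044-133852103) gave log2 ratios of 1.61, 1.40, 1.54 and 1.53 on C1 to C4 and 1.68, 1.64, 1.69, 1.73 and 1.06 on T1 to T5, a change of 0.04 (SE 0.13, 95% interval −0.24 to 0.32, limma adjusted p = 0.872). The dimmer (A_52_P319161, chr4:133849207-133849266) gave a change of 0.05 (SE 0.11, adjusted p = 0.787). On both probes 4 injured arrays were above all uninjured arrays and T5 was below all arrays. Without T5 the brighter probe changed by 0.16 (adjusted p = 0.0828), and within the shared slide the changes were −0.15 and −0.09. Cy5 signals were 186507 ± 16446 and 166882 ± 41920 on the brighter probe and 20357 ± 2902 and 19222 ± 6348 on the dimmer one, and Cy3 signals were 30438 ± 1221 and 29547 ± 5110, and 5415 ± 295 and 5140 ± 476.

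Stmn3 (A_51_P140690, NM_009133, chr2:181807603-181807662), which encodes the neuronal stathmin SCLIP, had log2 ratios from 5.24 to 5.60 on uninjured and from 5.09 to 5.55 on injured arrays. The groups overlapped, and the change was 0.00 (SE 0.10, 95% interval −0.23 to 0.23, adjusted p = 0.993), and −0.04 within the shared slide. Its Cy5 signal was 123841 ± 4804 and 108332 ± 21590, and its Cy3 signal 1460 ± 89.0 and 1387 ± 212.

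Whether the stathmins differed from each other was tested on the per-array difference of their brighter probes, as part of 10 pairs of related members, with exact permutation tests adjusted over the 10 pairs. The change of Stmn4 was larger than that of Stmn1 by 1.23, of Stmn2 by 1.03 and of Stmn3 by 1.27 (permutation p = 0.00794 and adjusted p = 0.0159 for each, with no overlap of the groups). Stmn2 changed more than Stmn3 by 0.24 (95% interval 0.11 to 0.36, adjusted permutation p = 0.0159), also with no overlap. With the authors' processed values this last difference was 0.30 and did not pass (adjusted permutation p = 0.181). Stmn1 was not separated from Stmn2 (difference −0.20, 95% interval −0.68 to 0.28) or from Stmn3 (0.04, 95% interval −0.47 to 0.55).

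Marcks (A_51_P352968, NM_008538, chr10:36916105-36916164) had log2 ratios of −0.61, −0.98, −0.61 and −0.62 on C1 to C4 and 0.06, 0.29, 0.15, 0.20 and 0.00 on T1 to T5. The normalized ratio was below 0 on all uninjured arrays and at or just above 0 on injured arrays, and C2 was the lowest of all. The change was 0.84 (SE 0.09, 95% interval 0.64 to 1.05, limma adjusted p = 0.000121, exact permutation p = 0.00794), and 0.75 without C2. Cy5 rose from 7860 ± 1320 to 12592 ± 3177, while Cy3 was 6499 ± 594 and 6117 ± 645. Within the shared slide the change was 0.72, with an adjusted p of 0.0522 with slide as a block and 0.178 on that slide alone.

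Gap43 (A_51_P290065, NM_008083), long used as a marker of growing axons, has a probe whose file coordinates, chr16:42052862-42101027, span 48166 bases, so that it crosses at least 1 intron. Its log2 ratios were 4.05, 3.71, 3.67 and 3.57 on C1 to C4 and 4.68, 4.90, 4.10, 4.37 and 3.79 on T1 to T5. Injured arrays were higher than all uninjured arrays but for T5, which was below C1. The change of 0.62 (SE 0.20, 95% interval 0.18 to 1.06) passed the threshold narrowly (limma adjusted p = 0.0467, exact permutation p = 0.0317). Its Cy5 signal was 1518 ± 249.9 and 2581 ± 1130. The Cy3 signal was 54.4 ± 1.40 and 58.1 ± 6.18, near but above the local background on all 9 arrays. Under 14 of 25 other settings Gap43 was no longer called, among them leaving out C2, C3, C4, T1, T2 or T4 (adjusted p from 0.0836 to 0.119). Within the shared slide its change was 0.41, with an adjusted p of 0.569 with slide as a block, and without T5 it was 0.76 (adjusted p = 0.00772).

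Basp1 (A_52_P26794, NM_027395, chr15:25468141-25468200) encodes CAP-23, which shares many of the membrane properties of GAP43. Its log2 ratio was 0.61, 0.73, 0.66 and 0.43 on C1 to C4 and 1.09, 1.18, 1.01, 1.11 and 0.63 on T1 to T5. Again 4 injured arrays were above all uninjured ones and T5 lay among them. The change was 0.40 (SE 0.11, limma adjusted p = 0.0255, exact permutation p = 0.0317), with Cy5 signals of 2763 ± 560 and 3382 ± 1118 and Cy3 signals of 1015 ± 17.5 and 973 ± 104. Within the shared slide it was 0.36, with an adjusted p of 0.394 with slide as a block, and it lost its call under 10 of 25 other settings, among them leaving out C1, C4, T1, T2 or T4 (adjusted p from 0.0505 to 0.0777).

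Of the membrane-associated kinase C substrates, Marcks changed more than Basp1 by 0.45 (95% interval 0.10 to 0.79, adjusted permutation p = 0.0159), with no overlap of the groups. This difference did not pass with the authors' values (0.41, adjusted permutation p = 0.0595) or with Cy5 alone (0.40, adjusted permutation p = 0.129). Gap43 was not separated from Basp1 (difference 0.22, 95% interval −0.17 to 0.62) or from Marcks (−0.22, 95% interval −0.75 to 0.30).

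**Figure D3:**
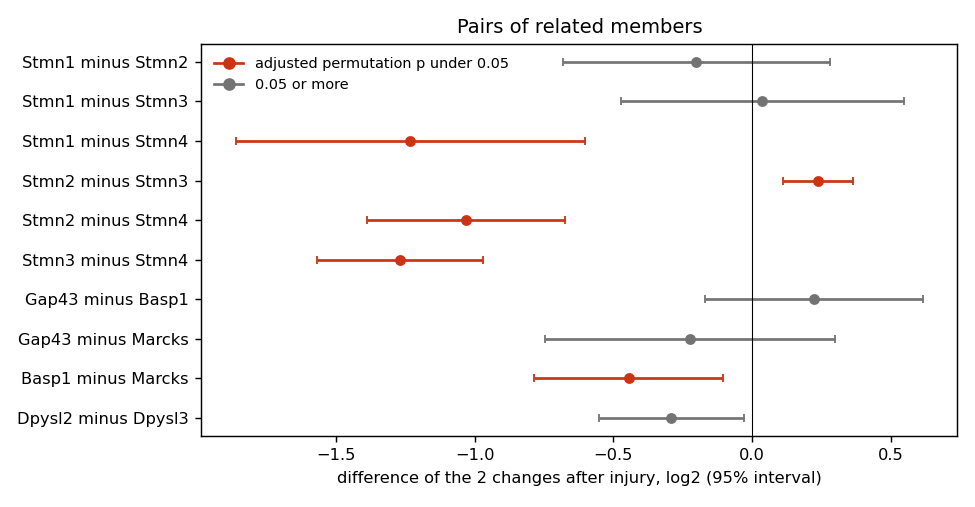
Difference between the changes of 2 related members after injury (horizontal axis, log2 units), each read by its brighter probe, with the 95% interval. The 5 pairs that passed the exact permutation test adjusted over 10 pairs are Stmn4 against each other stathmin, Stmn2 against Stmn3, and Basp1 against Marcks.

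The collapsin response mediators did not pass the test in either direction. Dpysl2 encodes CRMP2, which carries the signal of semaphorin 3A and binds tubulin. Its brighter probe (A_52_P591166, NM_009955, chr14:61663778-61663837) gave log2 ratios from 3.45 to 3.77 on uninjured and from 3.19 to 3.59 on injured arrays, a difference of −0.26 (SE 0.09, limma adjusted p = 0.0679). The dimmer probe (A_51_P468899, chr14:61666090-61666149) gave 1.36 to 2.01 and 1.18 to 1.54, a difference of −0.33 (SE 0.12, adjusted p = 0.0681). Both differences pointed downward with overlapping groups and neither passed, although the brighter probe was called lower under 6 of 25 other settings, such as without C2 (adjusted p = 0.0333) or T3 (adjusted p = 0.0325), and the dimmer one under 3 of 23, such as without C1 (adjusted p = 0.0237) or T1 (adjusted p = 0.0452). With slide as a random block both were called lower (−0.26, adjusted p = 0.0211, and −0.41, adjusted p = 0.00889). That fit estimated a correlation within slides of −0.20, so it made no allowance for slide differences. The brighter probe differed by −0.31 within the shared slide (adjusted p = 0.356 with slide as a block) and the dimmer by −0.01 (adjusted p = 0.979). Cy5 signals were 57357 ± 5685 and 44730 ± 11037, and 1171 ± 203 and 947 ± 202. Cy3 signals were 2274 ± 74.0 and 2280 ± 277, and 215 ± 49.5 and 237 ± 58.1.

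Dpysl3, which encodes CRMP4, was read by A_51_P115441 (NM_009468), on chromosome 18 with coordinates that span 2497 bases and so cross an intron. It had the smallest SD of the 13 probes in both groups (0.07 and 0.02), with log2 ratios from 2.50 to 2.66 on uninjured and from 2.57 to 2.62 on injured arrays. Its change was 0.04 (SE 0.05, 95% interval −0.09 to 0.16, adjusted p = 0.695), with Cy5 signals of 35414 ± 1999 and 33957 ± 7757 and Cy3 signals of 3028 ± 366 and 3017 ± 292. Its change was 0.08 within the shared slide. The difference between the changes of Dpysl2 and Dpysl3 was −0.29 (95% interval −0.55 to −0.03), and its adjusted permutation p was 0.0926. It passed with Cy5 alone (adjusted permutation p = 0.0159) and without C2 (adjusted permutation p = 0.0298).

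**Figure D4:**
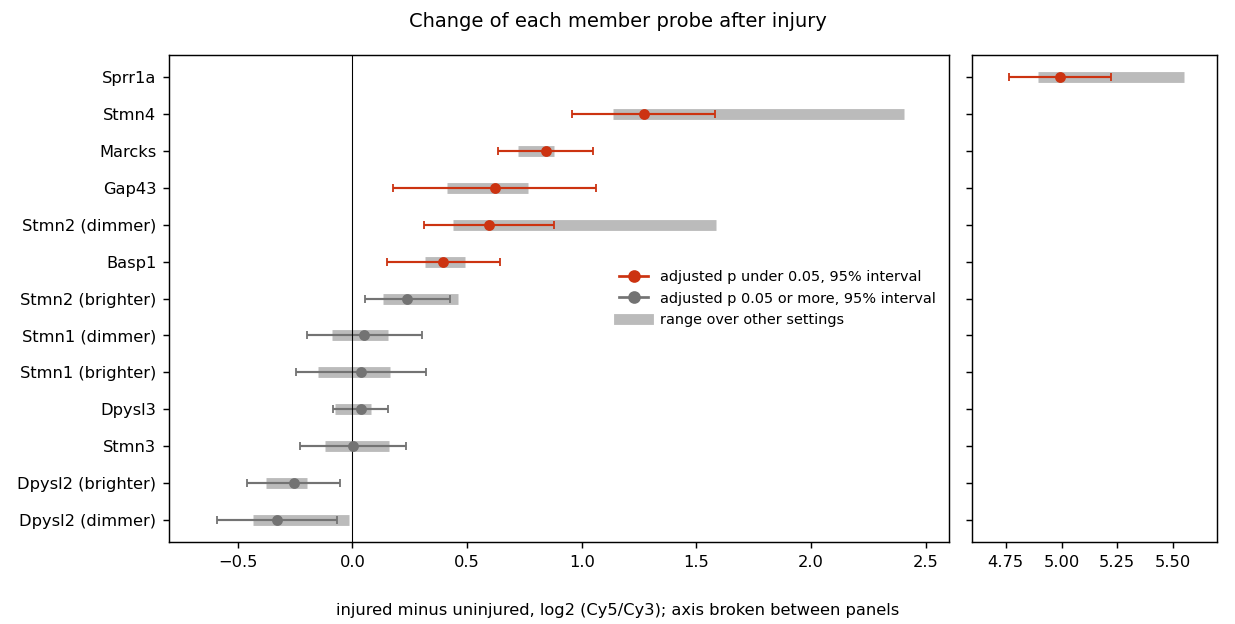
Injured minus uninjured log2 ratio of each member probe (horizontal axis, broken before Sprr1a), with the 95% interval of the limma fit and, in grey, the range over 25 other settings (22 or 23 for dimmer probes). Sprr1a ranges from 4.89 to 5.55, Stmn4 from 1.14 to 2.41 with the Cy5 channel alone at the top, and the ranges of Stmn1, Stmn3 and Dpysl3 cross 0.

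Among 29 other growth cone genes the changes went both ways. Of these 7 rose, 2 fell and 20 did not pass, with a median change of 0.03, beside 10.5% higher and 13% lower among all probes. Higher were Chl1, a cell adhesion molecule of the L1 family, by 0.86 (adjusted p = 0.000401), Gprin1, a G protein-regulated inducer of neurite outgrowth, by 0.75 (adjusted p = 0.000346), the actin regulator Cttn by 0.66 (adjusted p = 0.0113) and Crmp1, a relative of Dpysl2, by 0.39 (adjusted p = 0.0103). Dbn1, Fscn1 and Dclk1 were also higher. The membrane-anchored neuritin Nrn1 was lower by 1.16 on the log2 scale (change −1.16, adjusted p = 0.000208), as was profilin 2 (Pfn2), with a change of −0.33 (adjusted p = 0.0183). Marcksl1, the close relative of Marcks, had a change of 0.53 (SE 0.18, adjusted p = 0.0546) and did not pass.

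Next came a list of kinases, calmodulins, palmitoyl transferases and related genes, among them Nrgn, Pcp4 and Ppp3ca. Of 23 genes 3 rose, 7 fell and 13 did not pass, with a median of −0.06, beside 10.5% higher and 13% lower among all probes. Lower were Cdk5r1, the activator of CDK5, which phosphorylates DPYSL2 (−0.71, adjusted p = 4.09e-05), and the protein kinase C genes Prkce (−0.67, adjusted p = 0.00185), Prkca (−0.52, adjusted p = 0.00988) and Prkcd (−0.40, adjusted p = 0.0247), whose products phosphorylate GAP43 and MARCKS. Mapk9, the gene of JNK2 (−0.34, adjusted p = 0.0221), Camk2a (−0.31, adjusted p = 0.0318) and Zdhhc15 (−0.28, adjusted p = 0.0182) were also lower. Rock2 (0.40), Zdhhc3 (0.31) and Mapk8 (0.26), the gene of the JUN kinase JNK1, were higher. Mapk10, the gene of JNK3, had a change of 0.02 and did not pass.

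Other genes known to rise in regenerating neurons were higher with 1 exception among those tested. Of 20 such genes 19 were tested and 18 rose, with 0 lower and a median change of 1.59. Among all probes tested 10.5% were called higher and 13% lower. The largest were Atf3, a stress-induced transcription factor (5.14), the membrane protein Flrt3 (3.91), the growth arrest gene Gadd45a (3.50) and the neuropeptide Npy (3.24). Csrp3 had a change of 0.36 (adjusted p = 0.0767), and Vip was not above background. The list was chosen from genes known for this response, so its direction is no independent evidence.

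**Figure D5:**
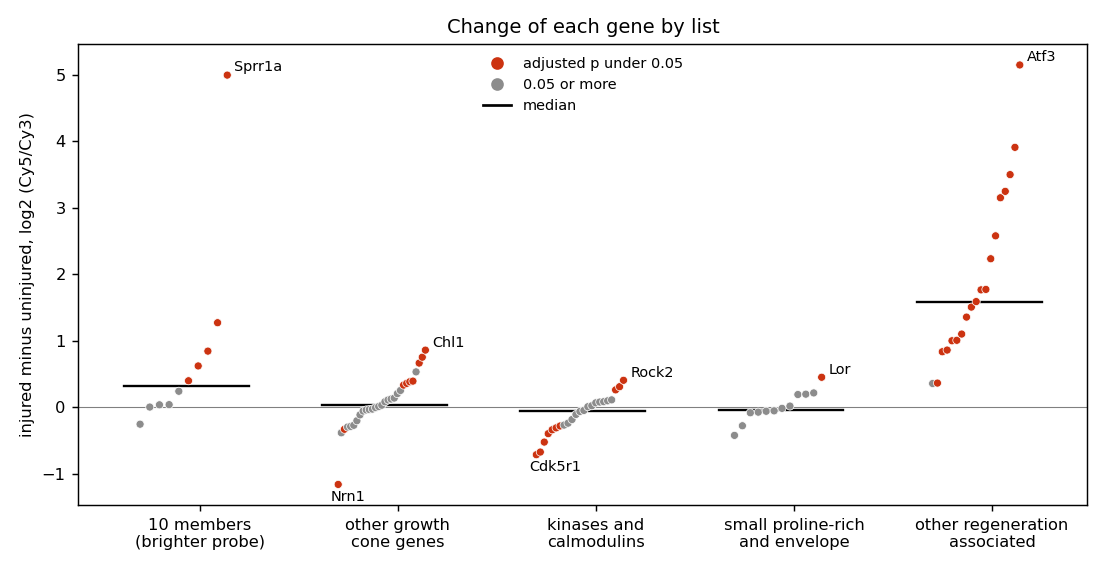
Change of each gene after injury (vertical axis, injured minus uninjured log2 ratio) for the 10 members by their brighter probe and for the 4 lists, with red for adjusted p under 0.05, grey for the rest and a line at the median. Sprr1a stands with the highest of the other regeneration-associated genes, led by Atf3 at 5.14, while the other growth cone genes center near 0.03.

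Neuronal markers were present on all arrays, as the tissue label implies. Of 13 neuronal markers 2 were lower, the transcription factor Isl1 (−0.49) and the sodium channel gene Scn9a (−0.54), and the median was −0.09. The other 11 did not pass, and of all probes tested 10.5% were called higher and 13% lower. For Isl1 and Scn9a, fewer neurons and less RNA of the gene per neuron cannot be told apart in whole ganglia, and neither was tested. Of 10 macrophage markers 3 were higher, Aif1 (0.90), Cd14 (0.83) and Itgam (0.50), with a median of 0.71, and their mean log2 ratio ranged from −1.17 to −0.42 on uninjured and from −0.61 to 0.28 on injured arrays. Satellite glia markers had 1 of 7 higher (Glul, 0.78) and Schwann cell markers 0 of 7. Of 8 dividing cell markers, which bear on Stmn1, 1 was higher (Birc5, 0.36), and Aurkb was not above background. None of 8 muscle, 3 red blood cell or 6 fibroblast markers passed, with medians of 1.17, 0.50 and 0.28. The muscle list ranged from −0.15 to 0.01 on uninjured arrays and from −0.24 to 3.01 on injured arrays, with T4 the highest. The part of these cells in the changes of the members was not tested.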

How the data were processed

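RNA of L3/L4 DRG (4 uninjured, 5 injured) was hybridised in Cy5 against reference RNA in Cy3. The deposited intensity values are mean spot and median local background signals from Agilent Feature Extraction 10.5.1.1. Agilent's log10 ratios beside them had, per the file headers, a background model and linear-lowess normalization. The log2 ratios that the authors deposited, made with limma, served as an alternative. Intensities were corrected by normexp (offset 50, spots marked non-uniform left out), loess within arrays and averaging of repeated spots (R 4.3.3, limma 3.58.1). Probes with Cy5 above background on at least 4 arrays and measured on at least 3 arrays per group were tested by limma (lmFit and eBayes), with Benjamini-Hochberg adjustment over 31186 probes. Single probes and pairs had two-sided exact permutation tests. The procedure was tested on simulated data. Members, lists and tests were chosen with earlier results of these data known; named list genes are up to 4 called genes with the largest changes each way, others being named after their values were seen. Probe positions are from the files (mm7); exon annotation was not used. Alternatives varied background, normalization, filter, probe choice, slide, weights, threshold and arrays. The number of arrays limits the precision. Figures used Python 3.11.15 and matplotlib 3.10.9.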

Additional observations from a re-analysis of the deposited data

Results flagged for a closer look

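In 3 of 26 groups of arrays, 1 array lay apart from the others by Dixon's test, which chance gives in about 1 of 20 groups. On the injured array T5 the brighter Stmn1 probe had a log2 ratio of 1.06 and the dimmer one 0.54, each below all other arrays. On the uninjured array C2 Marcks had a log2 ratio of −0.98, below the other uninjured arrays.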

How the results depend on the processing

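Sprr1a kept its call under all 25 alternatives (4.89 to 5.55), Stmn4 under 24 (1.14 to 2.41) and Marcks under 23 (0.72 to 0.88). The 6 member probes called became 3 with Agilent's ratio, 2 with slide as a fixed block and 1 on the shared slide alone, but 7 with array weights and 9 with slide as a random block, and 4 to 7 when each array was left out. Probes called overall numbered 7338, and 3523 after median centring, 1508 with slide as a block (55.6% of them higher, against 3275 of 7338), 134 on the shared slide alone (90.3% higher), 3952 at an adjusted p under 0.01, 8890 with array weights, 10340 with slide as a random block and 5377 to 7481 with each array left out. The random-block fit estimated a correlation within slides of −0.20, so its higher counts make no allowance for slide differences. The pairs that differed went from 5 to 3 with the authors' values, and from 0 to 6 with an array left out. The 0 came when 1 injured array was left out, whichever it was, where 5 pairs reached the smallest p of 4 against 4 arrays (0.0286, adjusted permutation p = 0.0571). Signs turned for 4 probes with changes near 0, none of which passed. For the brighter Stmn1 probe the change was −0.0673 with offset 0, −0.00749 with all spots, −0.129 after median centring, −0.0648 with Cy5 alone, −0.148 with slide as a block or the shared slide alone, and −0.0037 to 0.163 with each array left out (below 0 without C2 or T4). For the dimmer Stmn1 probe it was −0.0634 after median centring, −0.0383 with Cy5 alone and −0.0895 with slide as a block or the shared slide alone. For Stmn3 it was −0.041 with offset 0, −0.0295 with all spots, −0.12 after median centring, −0.0717 with Cy5 alone, −0.038 with slide as a block or the shared slide alone, −0.00452 with slide as a random block, and −0.0438 to 0.0749 with each array left out (below 0 without C2, C3, T4 or T5). For Dpysl3 it was −0.0772 after median centring and −0.0154 with Cy5 alone. The cause was not tested. No paired analysis was possible because no replicate numbers are in the labels. Dim Cy3 limits Gap43 and the dimmer Stmn2 probe.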

Other observations

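In the reference channel some strongly induced probes were higher on injured arrays. The counts below are over all probes and include the members Sprr1a and Stmn4, both called higher in Cy3. In a limma fit of Cy5 alone, 71 probes were called with a rise of more than 4-fold. Of these, 53 had a higher Cy3 signal on injured arrays and 10 were called higher in Cy3, with a median Cy3 change of 0.04 on the log2 scale. Over all probes 14 were called higher and 19 lower in Cy3, with a median change of −0.00. The median absolute Cy3 change over all probes was 0.03, so the median of the 71 was of ordinary size. Stmn4 had the fifth highest Cy3 change (1.02), and for the other called members it lay between −0.06 for Marcks and 0.35 for Sprr1a.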
